A study of Mus musculus with 6 samples.

Results

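The comparison described here sets the common lymphoid progenitors (CLP) of Satb1-null fetal liver against those of wild type littermates. It rests on 2 of the 6 expression arrays of the series, 1 for each genotype, and covers the 13185 autosomal genes that could be compared on them, out of 19824 autosomal genes with a named probe. X- and Y-linked genes were left out. A gene was compared if its probe gave a signal well above background on at least 1 of the 2 arrays. With 1 array a side there is no spread between animals to test against, so no difference below has a p-value or a replicate check, and counts of genes past 2-fold describe these 2 arrays.

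Satb1 is a nuclear protein that binds AT-rich DNA and folds chromatin into loops, and it has been studied above all in thymocytes, where it recruits chromatin remodelling and deacetylase complexes to the genes that it anchors. Common lymphoid progenitors stand between multipotent progenitors and the committed B, T and innate lymphoid lineages. They answer to interleukin 7 and Flt3 ligand, and some of them begin to express the recombinase that cuts antigen receptor genes before lineage commitment. The series asked which genes depend on Satb1 in the earliest blood progenitors. All 6 groups were on the strain background C57BL6/J and came from fetal liver at E18.5, shortly before birth. The wild type CLP group and the Satb1 KO CLP group were sorted through the same gate, lineage marker negative, low c-kit, low Sca-1 and IL7Rα+, which the labels call CLP-enriched. The other 4 arrays hold sorts enriched for haematopoietic stem cells (HSC) and for lymphoid-primed multipotent progenitors (LMPP) of the same 2 genotypes. The labels give neither the allele of the null mice, nor the number of embryos behind a sort, nor whether embryos were pooled. Each array was made from 6.1 ng of total RNA after whole-transcriptome amplification, and was read in 1 colour.

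Levels are given as log2 of the processed signal minus the 75th percentile of the array, so that 0 is the 75th percentile of all spots that are not controls. Differences are the null-labelled array minus the wild type array on this log2 scale, so that 1 is 2-fold. A gene that only 1 of the 2 arrays measured well above background has a lower bound in place of a difference, written as "at least N-fold". The scanner's own error of a CLP difference had a median of 0.20, which covers neither animals nor sorts nor amplification. On the 6 arrays between 52.4% and 57.7% of spots were well above background, with 53.0% on the wild type and 54.4% on the null-labelled CLP array, and no spot was saturated.

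The targeted gene did not tell the 2 CLP arrays apart. Satb1 stood at 0.71 on the wild type and 0.65 on the null-labelled array, a difference of -0.06 by its 1 probe. Whether that probe lies inside the deleted part of Satb1 is unknown here, so it checks nothing, and the second array is called null-labelled throughout. The gate markers were present on both arrays. Il7r, the IL-7 receptor chain of the gate, stood at 1.61 and 1.55. Kit, the stem cell factor receptor, was at 2.79 in wild type and 3.74 on the null-labelled array, and Ly6a, which encodes Sca-1, at 0.21 and -0.50. Flt3 was at 0.85 and 1.78 by its brighter probe, a difference of 0.93, while its other probe differed by 0.10. All 9 CLP markers (Il7r, Flt3, Kit, Ly6a, Dntt, Rag1, Ly6d, Cd27 and Notch1) were well above background on both arrays.

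Transcripts of other blood lineages were on both arrays too. All 7 granulocyte and monocyte markers were detected, with a summed level (log2 of the sum over markers) of 9.74 in wild type CLP and 9.57 in null-labelled CLP, against 7.69 to 8.40 on the HSC and LMPP arrays. All 5 autosomal erythroid markers were detected as well, at 9.43 and 9.53 against 3.89 to 6.52. Both CLP arrays were therefore high in these markers, and similar to each other. Other panels differed between the 2 CLP arrays. The megakaryocyte panel stood at 5.63 with 7 of 7 markers detected in wild type and at 4.99 with 5 of 7 on the null-labelled array, where Gp5 and Gp6 were missing. Macrophage markers stood at 2.5 and 3.28, mast cell and basophil markers at 0.93 and 2.15, and endothelial and stromal markers at 2.25 and 1.12. B cell markers were at 3.0 and 3.20, with Ms4a1 not detected on either array. T cell markers were at 1.71 and 0.64 with 2 of 7 detected on each, Cd4 and Cd5 in wild type and Cd4 and Cd3e on the null-labelled array. The brightest, Cd4, was at 1.58 and 0.26 by its brighter probe, while its other probe differed by 0.00. Cd3d, Cd3g, Cd2 and Cd8a were not detected on either array. Natural killer and innate lymphoid markers were at 1.25 and 1.77, and Ncr1, Klrb1c and Eomes were not detected on either. Fewer cells of a type and less RNA per cell cannot be told apart in such bulk samples.

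Slide row and sex-linked signal also went with the genotype labels. The wild type arrays filled row 1 and the null-labelled arrays row 2 of 1 slide. Xist, which coats the inactive X chromosome, was at 4.45 on the null-labelled CLP array and not well above background on the wild type CLP array, and the Y-linked gene Eif2s3y was at -0.25 on the null-labelled and 0.98 on the wild type array. Genotype, slide row and sex-linked signal cannot be told apart on these arrays.

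On the null-labelled CLP array 1560 of the 13185 genes (11.8%) stood 2-fold or more above wild type and 1085 (8.23%) 2-fold or more below. Of these 2645 genes (20.1% of those compared), 842 have only such a bound. The 11.8% and 8.23% are the shares over all genes to set beside the list counts below. All genes together had a median difference of 0.05. The same count gave 9.78% of 12893 genes in LMPP (5.76% higher, 4.02% lower) and 14.2% of 13451 genes in HSC (8.33% higher, 5.84% lower). The share past 2-fold was higher in CLP than in the other populations at every level of signal, as the plot of shares by level shows, and that difference between populations was not tested. It depended on the level: 34.1% of the 1367 genes with a mean level between -2 and -1 were past 2-fold in CLP, 17.6% of the 1608 genes between 0 and 1, and 2.98% of the 3794 genes above 2. Genes measured on both arrays with a mean level above 0 are called bright below. Of 7057 bright genes, 317 (4.49%) were at least 2-fold higher and 238 (3.37%) at least 2-fold lower, 7.86% together. Only 9 genes with a level above 0 on the wild type array were not well above background on the null-labelled one, of 7056 such genes, and 10 of 7175 the other way.

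**Figure D1:**
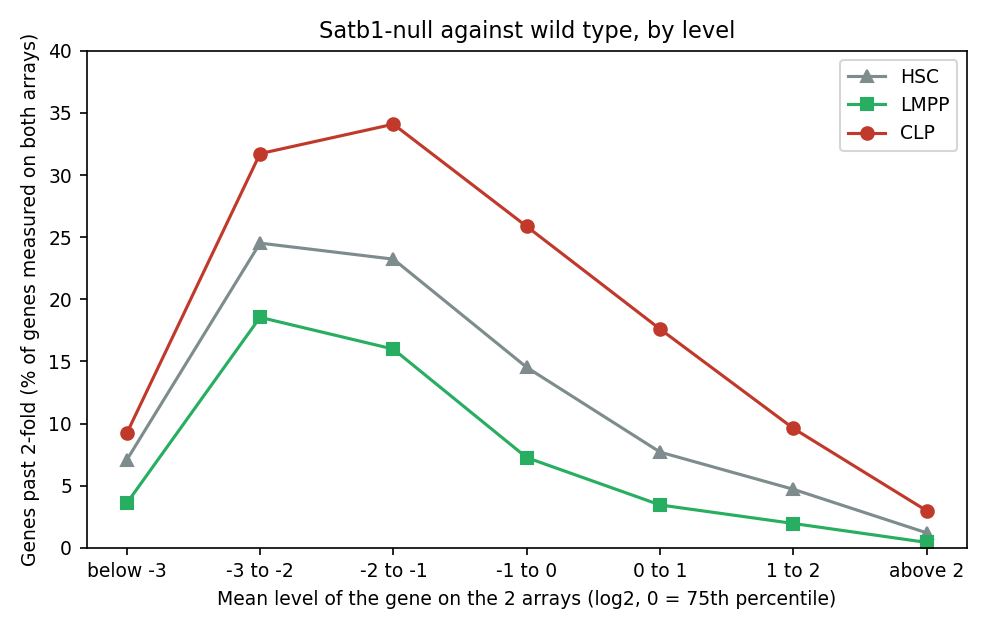
Share of genes past 2-fold between null-labelled and wild type arrays (percent of genes measured on both arrays), by the mean level of the gene on the 2 arrays (log2, 0 = 75th percentile), for HSC, LMPP and CLP, with 1 array a genotype. The CLP line runs from 9.20% below -3 through 34.1% between -2 and -1 to 2.98% above 2, and lies above the other lines in all 7 bins.

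**Figure D2:**
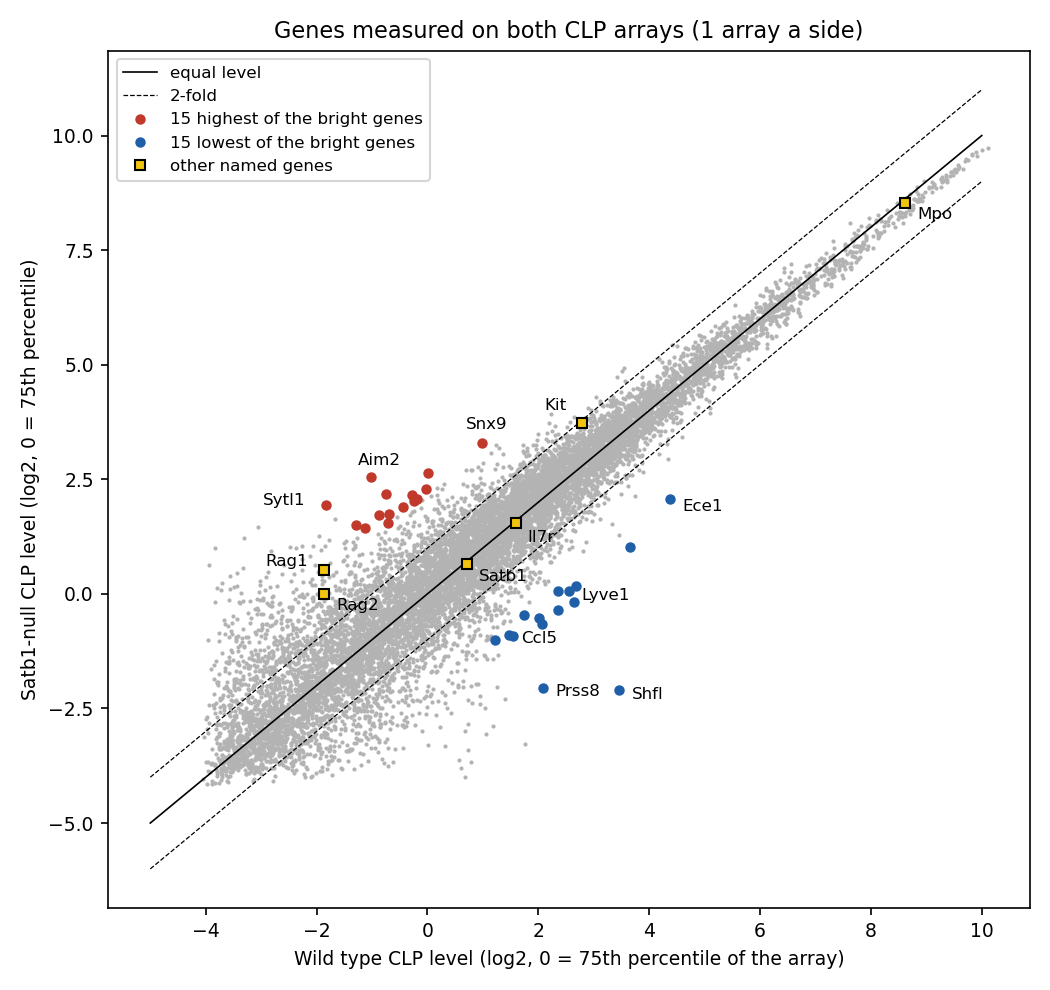
Level of each gene measured on both CLP arrays, wild type on the horizontal and null-labelled on the vertical axis (log2, 0 = 75th percentile of the array), 1 point a gene and 1 array a side. The cloud narrows toward bright genes: Mpo lies at 8.62 and 8.54, while Rag1 lies at -1.88 and 0.53 and Shfl at 3.46 and -2.11, outside the dashed lines that mark 2-fold.

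Different probes of a gene agreed less on this difference than on the difference between populations. For 2896 genes with a second probe measured on both CLP arrays, the brightest and the second probe correlated across genes at r = 0.18. Genes are not independent replicates, and the probes of a pair share their RNA. Between the genotypes r was likewise low in the other populations, 0.20 over 2984 genes in LMPP and 0.15 over 3065 genes in HSC. Probe pairs chosen in the same way on the arrays of each contrast gave r = 0.56 over 2839 genes for CLP minus LMPP in wild type. On the null-labelled arrays r was 0.61 over 2910 genes. Where the brightest probe was past 2-fold between the genotypes in CLP (346 genes), the second probe went the same way for 213 (61.6%) and was itself past 2-fold for 98 (28.3%). For CLP minus LMPP in wild type the second probe went the same way in 82.6% of cases. Between the genotypes it did so in 65.4% in LMPP and 59.1% in HSC. Brighter genes did not agree better in CLP. Of genes past 2-fold, the second probe went the same way for 60% of 170 with a mean level above 0. For the 175 at 0 or below it did so for 63.4%. It was itself past 2-fold for 24.7% and 32%. Over the 2324 genes with a mean level above 0, r was 0.14. A gene with 1 probe is therefore given below by its value alone, and for genes with several the main disagreements between probes are given.

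**Figure D3:**
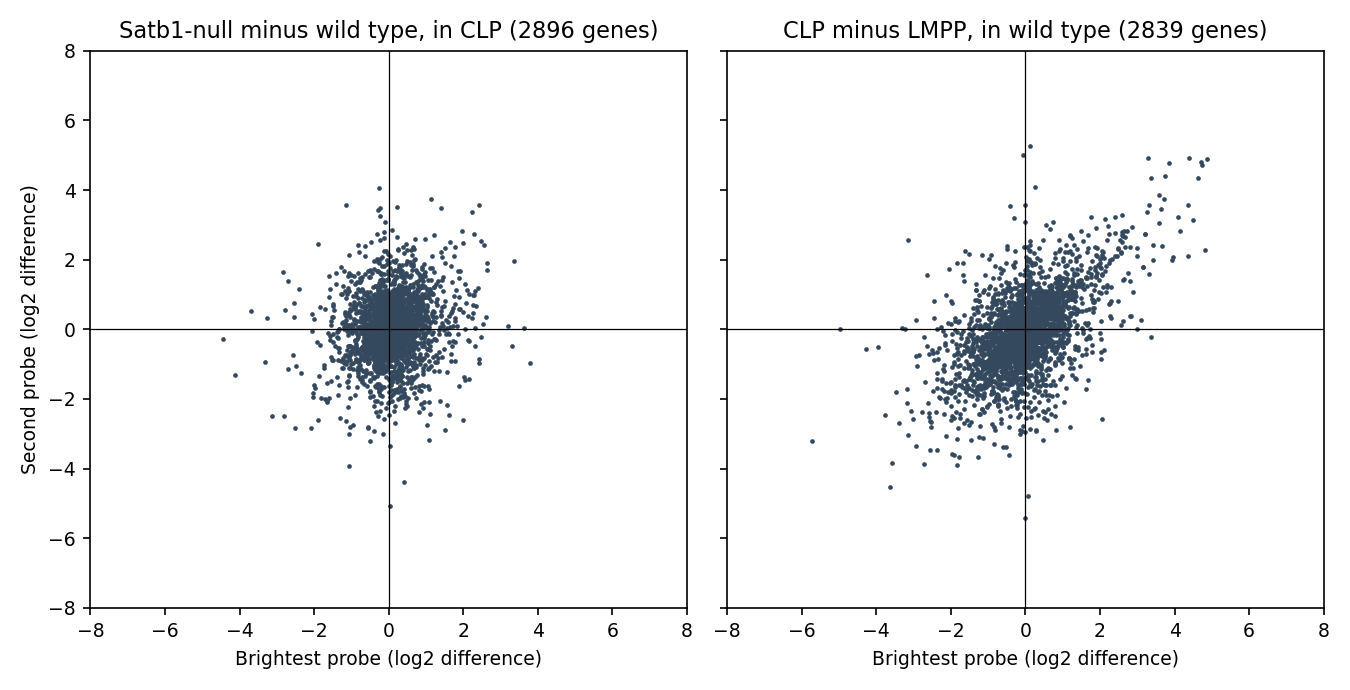
Difference by the brightest probe (horizontal) against the second probe (vertical) of the same gene, in log2, 1 point a gene: null-labelled minus wild type in CLP on the left (2896 genes) and CLP minus LMPP in wild type on the right (2839 genes). The left cloud is nearly round (r = 0.18) and the right one is drawn out along the diagonal (r = 0.56).

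V(D)J recombination cuts and rejoins antigen receptor loci, and several of its genes were higher on the null-labelled CLP array. Of the 14 compared, 7 passed 2-fold upward and none downward, where 11.8% and 8.23% of all genes did, and the median of the list was 1.07 beside 0.05 for all genes. Rag1, which with Rag2 forms the recombinase, was at -1.88 in wild type and 0.53 on the null-labelled array, a difference of 2.40. Its second probe differed by 1.18. On the LMPP arrays Rag1 stood at -2.48 in wild type and -2.84 on the null-labelled array, so that null-labelled CLP was the highest of these 4. Rag2 was at -1.87 and 0.01 in CLP, a difference of 1.88 by the 1 probe of 2 that was above background, and at 0.01 and -0.16 in LMPP. For Rag2, wild type CLP was therefore the array that stood below the other 3.

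Rag1 and Rag2 lie next to each other on chromosome 2 and are transcribed toward each other, and their starts are shown because both genes were higher. The RefSeq promoters of build GRCm38.p6 are given for the 250 bases before each start, 5′ to 3′ on the strand of the gene, at chr2:101649533-101649782 on the minus strand for Rag1 and chr2:101624462-101624711 on the plus strand for Rag2. Capitals mark the letters CANNTG, the E-box read by E proteins such as Tcf3, which reads the same on both strands.
Rag1: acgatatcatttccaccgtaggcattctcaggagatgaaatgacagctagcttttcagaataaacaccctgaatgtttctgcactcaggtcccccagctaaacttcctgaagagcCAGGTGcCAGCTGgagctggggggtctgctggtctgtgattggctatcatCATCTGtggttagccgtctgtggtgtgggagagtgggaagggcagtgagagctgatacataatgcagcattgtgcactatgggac
Rag2: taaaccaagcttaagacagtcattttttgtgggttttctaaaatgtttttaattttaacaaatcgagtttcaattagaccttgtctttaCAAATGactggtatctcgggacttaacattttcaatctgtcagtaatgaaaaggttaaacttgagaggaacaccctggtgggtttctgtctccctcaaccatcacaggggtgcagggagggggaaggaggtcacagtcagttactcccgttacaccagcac
The Rag1 stretch holds 3 such matches and the Rag2 stretch 1. An E-box is common in windows of this length: 65.9% of all 25748 autosomal promoters in the table hold at least 1. Among bright genes of the CLP comparison 55.4% of promoters had one, and the share was 59.5% for the 259 promoters matched to the 317 bright genes that were at least 2-fold higher and 56.5% for the 193 matched to the 238 that were lower. The median A+T share of these windows was 39.2% for the higher bright genes and 40% both for the lower and for all bright genes compared. A match of letters is a description and not a bound site.

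Several end joining genes past 2-fold were dim. Xrcc4, which holds DNA ligase IV in place, was at -3.23 and -1.41, a difference of 1.82. Nhej1, its partner at broken ends, was at -1.91 and -0.27, a difference of 1.64. Prkdc, the kinase that senses the ends, was at -2.37 and -1.09, and Poll, a gap filling polymerase, at -3.12 and -1.83. Each had 1 probe, and each was higher on the null-labelled array. The damage kinase Atm differed by 1.58 with its brighter probe and by -2.18 with the other. Bright members of the list were level: Hmgb1, a DNA bending cofactor of the recombinase, was at 6.39 and 6.54 by its brightest probe, with differences between -0.20 and 0.50 over its 7 probes, Hmgb2 was at 7.18 and 7.04, and the Ku subunit gene Xrcc6 at 3.44 and 3.34. Dntt, which adds nucleotides at the joints, went the other way at -0.81. The list median was 0.24, with 4 members past 2-fold, after normexp background correction and 0.50 with the mean over probes of each gene.

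Of 5 other genes around the Rag locus, 1 was past 2-fold, near the 20.1% of all genes past it in either direction. Iftap, which lies beside Rag2, was at 2.79 and 2.83 with both its probes within 0.12, and Traf6, a signalling adaptor, was at -0.81 and -0.89. Commd9 differed by -0.24, and Ldlrad3 by -0.25 with its brighter and -1.81 with its other probe. Prr5l, a regulator of mTORC2, was at least 2.58-fold higher with its wild type value below background.

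Factors of the B lineage switch on the B cell programme in these progenitors. Past 2-fold were 4 higher and 1 lower of 20, beside 11.8% and 8.23% of all genes, with a median of 0.43. In HSC 4 of 18 were higher, no member was as far below, and the median was 0.44. Ebf1, the factor that specifies B cells, was not well above background in wild type CLP nor on any HSC or LMPP array and stood at -1.94 on the null-labelled CLP array, at least 4.56-fold higher. Irf4, which acts with Pu.1 in pre-B cells, was at -2.80 and -0.17, a difference of 2.63. Pou2af1, a coactivator of octamer factors, was at 1.30 and 3.18, a difference of 1.89. It was higher on the other null-labelled arrays too. In LMPP it was at -0.01 on the null-labelled array and below background in wild type, and in HSC at -0.09 and -3.54. Bach2, a repressor that favours the B over the myeloid fate, was at 0.25 and 1.5, with LMPP levels of 0.92 and 0.88. The member past 2-fold in the other direction was Klf3, at 0.57 and -0.93, a difference of -1.5. Brighter factors were near each other on both arrays: Klf2 at 6.25 and 6.26, Bcl11a at 3.78 and 4.02, and Myb at 4.0 and 3.76.

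Of 15 pre-B receptor and B signalling genes, 3 were past 2-fold, all of them higher, where 11.8% of all genes were. The list median of 0.48 became 0.11 after normexp. Bst1, a surface enzyme of B cell precursors and stroma, was at -2.63 and 0.44, a difference of 3.06. Ly6d, which marks the B-biased share of common lymphoid progenitors, was at -3.54 and -2.42, a difference of 1.12. The surrogate light chain genes, which pair with the first heavy chain, were within 2-fold: Vpreb1 stood at 2.17 and 1.76, a difference of -0.42, and Igll1 at -0.77 and 0.05, a difference of 0.82. Bright members were level, Cd24a at 5.77 and 5.70 and Cd22 at 2.46 and 2.34.

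Early lymphoid priming genes, which multipotent progenitors switch on before they commit, had 6 of 19 members 2-fold or more higher and no member as far below. Of all genes 11.8% were as far above and 8.23% as far below. The list median was 0.54. After normexp the median was 0.29 with 2 members past 2-fold, and with the mean over probes it was 0.34. Of the 6 higher members, Rag1, Rag2 and Ly6d were already counted in lists above. The others were Lax1, Cd27 and Il12rb2. Lax1, an adaptor that dampens antigen receptor signals, was at -2.97 and -1.79. Cd27, a receptor of the tumour necrosis factor family, was at -2.21 and -1.15. Il12rb2 was at least 3.46-fold higher. Bright members within 2-fold included Gfi1 at 5.09 and 5.43 and Cnn3 at 2.5 and 2.70.

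**Figure D4:**
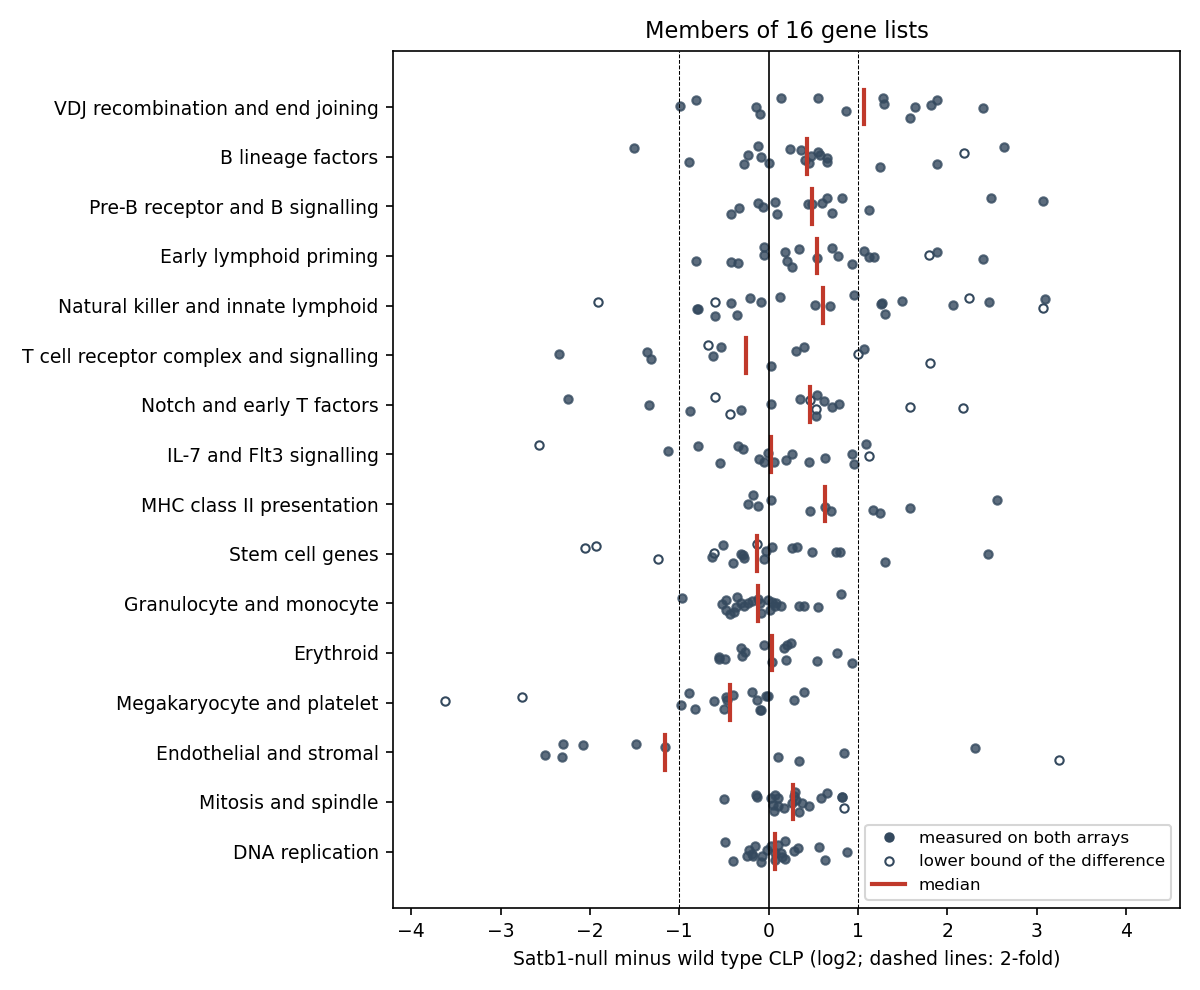
Difference of each member of 16 gene lists between the null-labelled and the wild type CLP array (log2), 1 row a list and 1 point a gene, open where the value is a lower bound, with the median of the list as a red bar and dashed lines at 2-fold. The V(D)J list has its median at 1.07 and the endothelial and stromal list at -1.16, while no granulocyte, erythroid, replication or mitosis gene passes a dashed line.

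Signalling through the IL-7 receptor, which the gate selects for, and through Flt3 went both ways. Of 18 genes 2 were higher and 2 lower past 2-fold, near the 11.8% and 8.23% of all genes. The median of 0.02 changed sign with median centring. Among the feedback inhibitors, Socs1 was at -1.62 in wild type and not well above background on the null-labelled array, at least 5.93-fold lower, and Cish was at -0.34 and -1.47, a difference of -1.13. Socs2 was at -1.44 and -1.98 by its brightest probe, within 2-fold. Socs3, an inhibitor of other cytokine receptors, was at least 2.18-fold higher with both values dim. Bcl2, the survival gene downstream of the receptor, was at 2.25 and 3.34, a difference of 1.09. The kinase Jak1 stood at 3.20 and 3.09 and Stat5b at 4.17 and 4.42, and Mcl1, the other survival gene of the pathway, at 4.61 and 5.05.

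Notch signalling directs progenitors to the T lineage. Of its 17 genes 2 were higher and 2 lower past 2-fold, near the 11.8% and 8.23% of all genes. The list median was 0.46, but 0.06 after normexp and 0.22 with the mean over probes. Lfng, the glycosyltransferase that tunes Notch receptors to their ligands, was at 0.36 in wild type CLP and -1.88 on the null-labelled array, a difference of -2.25. On the other 4 arrays Lfng lay between 0.79 and 1.20, so that null-labelled CLP stood apart from the other 5. Dtx3 was at -0.06 and -1.40, a difference of -1.34, with levels of 0.54 to 0.91 on the other 4. The ligand gene Jag1 was at least 4.53-fold higher and the feedback inhibitor Nrarp at least 3.0-fold, each with a dim value above background on the null-labelled array alone. Notch2 stood at 3.86 and 3.88 (-0.91 by its second probe), Rbpj, the DNA binding partner of Notch, at 2.40 and 3.10, and Mfng at 1.53 and 2.32.

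Of 12 genes of the T cell receptor complex and its signalling, 3 were higher and 3 lower past 2-fold. Of all genes 11.8% were higher and 8.23% lower. The list median was -0.25, and -0.53 with the mean over probes. Prkcq, a kinase downstream of the receptor, was at -0.69 and -2.05, a difference of -1.36. Cd4 was at 1.58 and 0.26 by its brighter probe, a difference of -1.32, and differed by 0.00 by the other. Cd3e was at least 3.50-fold higher, dim on the null-labelled array at -2.0, while Cd3d, Cd3g and Cd247 were below background on both arrays. The brightest other members were Thy1 at 1.04 and 1.35, Lck at 0.93 and 0.31, and Cd28 at 0.33 and 0.36.

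Natural killer and innate lymphoid genes had 9 members higher and 1 lower past 2-fold of 22 compared, beside 11.8% and 8.23% of all genes, with a list median of 0.60 that was 0.32 with no detection filter. Klrd1, the CD94 chain of natural killer receptors, was at -3.04 in wild type and 0.05 on the null-labelled array, a difference of 3.09. Tbx21, the T-bet factor, was at -1.98 and 0.49, a difference of 2.47, and lay between -2.19 and -1.35 on the other 4 arrays. The granzyme gene Gzma was at -3.50 and -1.44, a difference of 2.06, and Gzmb was at least 4.74-fold higher. Cxcr5, the receptor that brings lymphoid cells to follicles, was above background on the null-labelled CLP array alone of the 6, at -1.05, and at least 8.42-fold higher. Itgb7, an integrin chain of gut homing cells, was at 1.23 and 2.72, a difference of 1.5, and Zbtb16, the factor of innate lymphoid precursors, at 0.88 and 2.15, a difference of 1.27. Lta, a lymphotoxin gene, was at least 3.77-fold lower. The defining markers Ncr1, Klrb1c and Eomes were not detected on either array. Id2, the inhibitor that innate lymphoid cells require, was at 2.62 and 2.54, and Itga4 and Il1rl1 were also within 2-fold by their brightest probes.

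**Figure D5:**
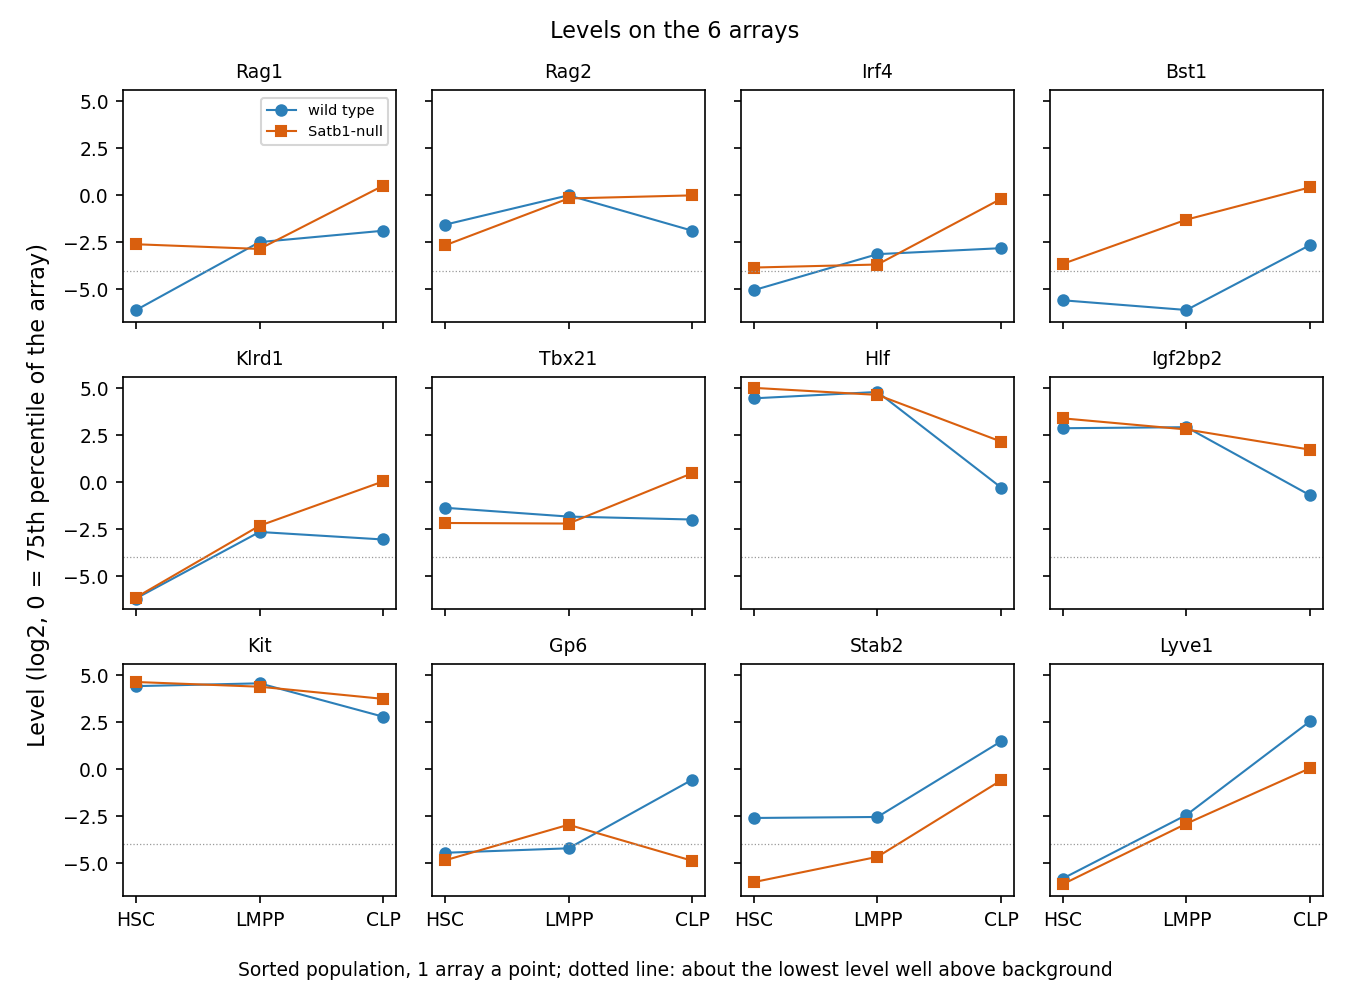
Level of 12 genes on the 6 arrays (log2, 0 = 75th percentile), by population, 1 array a point, wild type and null-labelled drawn apart, with a dotted line at about the lowest level well above background. Rag1, Irf4, Bst1, Klrd1 and Tbx21 have their highest point on the null-labelled CLP array, Hlf and Igf2bp2 stand lower on both CLP arrays than in HSC and LMPP, and Stab2 and Lyve1 have their highest point on the wild type CLP array.

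Genes of MHC class II presentation, which B cells, dendritic cells and macrophages share, had 4 of 11 members past 2-fold, each of them higher. The share over all genes was 11.8%. The list median was 0.63 and lay between 0.57 and 0.72 under the other centrings, normalizations and background correction. H2-Oa and H2-Ob encode the DO molecule, which restrains peptide loading. H2-Oa was at -3.0 and -0.45, a difference of 2.55, and H2-Ob at -1.29 and 0.29, a difference of 1.58. H2-Eb1 was at -0.10 and 1.15, a difference of 1.24, and Ctss, the protease that frees the peptide groove, at 2.90 and 4.07, a difference of 1.17. Cd74, the invariant chain, was at 2.56 and 3.26, whereas H2-Ab1 stood at 2.91 and 2.93 with both probes at 0.02.

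Neighbouring myeloid lists each had several members past 2-fold, with the counts given below. The scavenger receptor gene Marco was at 0.70 and 2.71, and C1qb, a complement chain of macrophages, at -2.77 and -1.60. C1qc was at least 8.89-fold higher. Marco, C1qb and C1qc were the 3 of 12 macrophage genes past 2-fold, none being lower. Csf1r stood at 4.39 and 4.43 by its brightest of 3 probes, which lay between 4.33 and 4.61 on all 6 arrays. The other 2 probes differed by 0.39 and, for the dimmest, 2.65. Of 12 genes of mast cells, basophils and eosinophils 3 were 2-fold higher: Cpa3, a mast cell protease, at 0.69 and 1.81, the basophil protease Mcpt8 at -2.54 and -0.60, and Ms4a2, a chain of the IgE receptor, at least 3.60-fold higher. Eosinophil granule genes of that list were bright and level, Prg2 at 7.28 and 6.72 and Ear1 at 6.13 and 5.69. Of 16 dendritic cell genes 2 were higher and 2 lower, the C-type lectin Cd209d at -1.78 and 0.02 and the factors Batf3 and Zbtb46 at least 6.96-fold and 3.35-fold lower. Of all genes 11.8% were 2-fold higher and 8.23% lower. The macrophage list had a median of 0.40, and 0.13 over genes measured on both arrays. The list of mast cells, basophils and eosinophils had a median of 0.06, with 6 of 12 genes above 0, and -0.14 over genes measured on both arrays. The dendritic cell median was 0.29. The summed macrophage and mast cell panels were both higher on the null-labelled array, as given above, and their part in the lymphoid results was not tested.

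Megakaryocyte and platelet genes leaned the other way. By count, none of 18 was 2-fold higher and 2 were lower, beside 11.8% and 8.23% of all genes, so the lower count was near that share. The lean was in the sign and the median: 2 of the 18 had a difference above 0. The list median was -0.43, and -0.30 over the 16 genes measured on both arrays. The largest differences were in platelet receptors. Gp6, the collagen receptor, was at -0.56 in wild type and below background on the null-labelled array, at least 12.3-fold lower. Gp5, which belongs to the von Willebrand factor receptor complex, was at -1.21 and likewise below background, at least 6.75-fold lower. Bright members stood closer: the integrin chain Itgb3 was at 5.85 and 5.35, with both probes at -0.50, the chemokine gene Pf4 at 5.31 and 4.70, and Thbs1 at 4.37 and 4.34. The list median was 0.38 in LMPP and 0.25 in HSC.

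The starts of Gp5 and Gp6 are shown because these 2 genes were the members past 2-fold, with the 6 letters AGATAA of the GATA motif, which megakaryocyte and erythroid factors bind, in capitals on either strand. They are the 250 bases before the RefSeq start in build GRCm38.p6, at chr16:30310782-30311031 for Gp5 and chr7:4397745-4397994 for Gp6, both on the minus strand of the chromosome.
Gp5: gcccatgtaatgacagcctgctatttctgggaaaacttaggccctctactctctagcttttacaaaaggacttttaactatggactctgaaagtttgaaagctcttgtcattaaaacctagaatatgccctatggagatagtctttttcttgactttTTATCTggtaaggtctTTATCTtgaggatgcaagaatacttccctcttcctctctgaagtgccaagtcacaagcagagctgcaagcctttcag
Gp6: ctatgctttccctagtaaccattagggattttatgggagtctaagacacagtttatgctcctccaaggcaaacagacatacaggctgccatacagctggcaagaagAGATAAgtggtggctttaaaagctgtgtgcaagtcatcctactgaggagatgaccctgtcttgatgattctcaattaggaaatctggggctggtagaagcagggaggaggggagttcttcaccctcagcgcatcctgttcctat
The Gp5 stretch holds 2 matches, both read on the opposite strand, and the Gp6 stretch 1. In all, 10.2% of autosomal promoters in the table hold this motif, as did 5.85% of those of bright genes compared in CLP, 3.86% of the bright higher genes and 6.22% of the bright lower genes.

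Erythroid and granulocyte genes, the brightest transcripts of other lineages, hardly differed. No gene of 15 erythroid genes was past 2-fold, with Hemgn at 9.50 and 9.24, the alpha globin gene Hba-a1 at 8.84 and 8.88, and the anion exchanger gene Slc4a1 at 7.82 and 8.02. None of 25 granulocyte and monocyte genes was past 2-fold either. Mpo, the myeloperoxidase gene, was at 8.62 and 8.54, the calprotectin gene S100a9 at 8.61 and 8.25, and the cytokine receptor gene Csf3r at 7.92 and 7.54. Their median was -0.11.

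Genes of endothelium and stroma had a list median of -1.16, which was -0.31 with no detection filter. Of 11 genes 6 were at least 2-fold lower and 2 higher, beside 8.23% and 11.8% of all genes. Lyve1, the hyaluronan receptor of lymphatic and sinusoidal endothelium, was at 2.55 in wild type and 0.05 on the null-labelled array, a difference of -2.5. Stab2, a scavenger receptor of liver sinusoids, was at 1.48 and -0.59, a difference of -2.08. Both genes were lower on all HSC and LMPP arrays than on either CLP array. Eng, a TGF-beta coreceptor that stem cells also carry, was at 0.87 and -1.43 in CLP, a difference of -2.30, and between 0.97 and 1.47 on the other 4 arrays. Kitl, the ligand of Kit, was at -0.55 and -2.86, and Cdh5, the endothelial cadherin, at 0.85 and -0.31. The members past 2-fold in the other direction were Pdgfrb and Cxcl12: the pericyte receptor gene Pdgfrb was at -1.34 and 0.97, a difference of 2.31, and the chemokine gene Cxcl12 was at least 9.48-fold higher. The collagen genes Col1a1 and Col3a1 were not detected on either array. What part endothelial cells in a sort had in these values was not tested. Of 14 hepatocyte genes 6 could be compared, 2 higher and 2 lower past 2-fold: the liver factor gene Hnf4a was at least 6.79-fold higher and the albumin gene Alb at least 5.21-fold lower, while Afp, Apoa1 and Ttr were not detected on either array.

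Stem cell genes were split, with 2 of 21 higher and 3 lower, beside 11.8% and 8.23% of all genes. The list median of -0.13 became 0.01 over the 16 genes measured on both arrays. Hlf, a factor of stem cells, stood at -0.29 in wild type CLP and 2.16 on the null-labelled array, beside 4.47 to 5.02 on the HSC and LMPP arrays. Lin28b, the RNA binding protein that keeps progenitors fetal, was at -1.30 and 0.01, a difference of 1.31 with 0.70 by the second probe, and its partner in the fetal programme, Hmga2, was at 2.49 and 3.29 with 1.27 by the second probe. Hoxb4 was at least 4.14-fold lower, Prdm16 at least 3.81-fold and Tek, the angiopoietin receptor, at least 2.36-fold. Among Hox, Meis and Pbx genes 2 of 11 were lower and none higher (median -0.51), Hoxb4 and Hoxa3, which was at least 7.75-fold lower and stood between 1.54 and 2.26 in HSC and LMPP. Egr1 at 5.54 and 6.30 and Lmo2 at 4.57 and 4.88 were bright stem cell genes within 2-fold.

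Of all genes 11.8% were 2-fold higher and 8.23% lower, the shares to set beside each count in this paragraph. Imprinted growth genes had 2 of 11 lower and 1 higher. Peg10 was at 1.05 and -3.06, a difference of -4.11 with -1.32 by the second probe. Mest was at 2.02 and 0.35, and its 3 probes differed by -2.98 to -1.66. Igf2, a fetal growth factor, was at least 5.91-fold higher. Of 7 Gimap genes, GTPases of lymphocyte survival, 1 was higher and 1 lower: Gimap1 was at -1.31 and 0.69 beside 2.92 to 3.31 in HSC and LMPP, and Gimap7 was at least 2.53-fold lower. In survival and homing lists the members past 2-fold, beside 11.8% higher over all genes, were Bcl2 and Bok of 13 Bcl2 family genes, Cxcr5 and Ccr6 of 14 chemokine receptor and homing genes, and Itgb7 of 16 integrin and adhesion genes, each of them higher. Ccr6, a receptor of B and innate lymphoid cells, was at -1.77 and -0.46, and Bok, a death promoting member, was at least 2.08-fold higher. The bright homing receptor gene Cxcr4 was at 6.29 and 6.75, and the adhesion gene Cd44 at 7.10 and 7.33. Itgam was at 7.23 and 6.87 by its brightest probe, which lay between 6.87 and 7.28 on all 6 arrays. Its 2 other probes were higher on both CLP arrays than in HSC and LMPP, and they differed by -0.69 and -1.64. Of 10 genes of the Myc network 1 was higher, Mxd3, and 1 lower, Mlx, with differences of 1.25 and -1.01.

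Cell cycle genes were nearly level, with a small shift of the mitotic ones. None of 22 mitosis and spindle genes was past 2-fold, and 19 of the 22 had a difference above 0 with a median of 0.27, against 0.05 over all genes. Mki67, the proliferation antigen, was at 6.05 and 6.50, Birc5 at 7.15 and 7.22 and Aurka at 5.14 and 5.01. None of 23 DNA replication genes was past 2-fold either (median 0.07), with Mcm6 at 7.97 and 8.05, Mcm4 at 6.50 and 6.6 and Mcm7 at 6.18 and 6.32. Among CDK inhibitors and D cyclins 2 of 12 were 2-fold higher, near the 11.8% of all genes. Ccnd2, a D cyclin of lymphoid cells, was at -0.43 and 1.42 beside 1.96 to 2.56 in HSC and LMPP. Cdkn1a, a p53 target, was at -1.67 and -0.34. Cdkn1a was higher on the null-labelled array in LMPP (1.25) and HSC (1.08) as well, but its mean over probes in CLP was -0.14. Ribosomal protein, oxidative phosphorylation and glycolysis genes (18, 19 and 14 genes) had none past 2-fold, with medians of -0.17, -0.03 and -0.03, and the last pair of medians changed sign after normexp or quantile normalization.

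Chromatin organisers and partners of Satb1 had 1 of 21 past 2-fold. Hdac3, a deacetylase, was at 2.04 and 0.49, a difference of -1.55, while Hdac1, which Satb1 is known to recruit, was at 3.33 and 3.38. Smarca5 was at 5.05 and 5.42, Rad21 at 5.22 and 5.08 and Mta2 at 5.45 and 5.33. Of 14 loci that Satb1 is known to govern in thymocytes or T cells, 4 were higher and 2 lower, beside 11.8% and 8.23% of all genes. Rag1, Rag2, Bcl2 and Cd6 were on the one side, Cd4 and Socs1 on the other. All were described above except Cd6, at -1.26 and -0.23. Ikzf2, Zbtb7b and Bcl6 of the same list differed by 0.85, 0.28 and 0.83.

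Interferon response genes had 2 of 18 higher and 4 lower, beside 11.8% and 8.23% of all genes. The list median of -0.05 was 0.31 with the mean over probes. Shfl, an antiviral inhibitor of translation, had the lowest value of the bright genes: 3.46 in wild type CLP against -2.11 on the null-labelled array, a difference of -5.57, and 2.48 to 3.33 on the other 4 arrays. Usp18, a brake on the interferon receptor, was at 0.05 and -2.22, and Ddx58, an RNA sensor, at 1.25 and 0.22 by its brighter probe. The mean over the Ddx58 probes was 0.47. Xaf1 was at -2.72 and -1.11 in the other direction. Immediate early and heat shock genes had 1 of 23 higher, Hspa1a, at 0.18 and 1.79 in CLP with differences of 1.88 in LMPP and 2.58 in HSC, and 1 lower, Egr3, at least 2.61-fold. Jund stood at 8.56 and 8.59, Fosb at 7.57 and 7.42 and Dnajb1 at 6.57 and 7.19.

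Among the bright genes, the 15 highest differences lay between 2.25 and 3.78. Aim2, a sensor of cytosolic DNA, was at -1.02 in wild type CLP and 2.55 on the null-labelled array, a difference of 3.57, with 2.16 and 1.95 in LMPP. Mndal, of the same interferon-inducible family on chromosome 1, was at -0.25 and 2.02, with 3.42 on both LMPP arrays. Tap2, the peptide transporter of class I presentation, was at -0.03 and 2.30. Igf2bp2, an RNA binding protein of fetal progenitors, was at -0.70 and 1.74, and its probes differed by 2.43 and 3.56. Hnmt, which inactivates histamine, was at -1.13 and 1.43, and its probes differed by 2.41 and 2.56. Snx9, a membrane remodelling protein of endocytosis, was at 0.99 and 3.29, with 1.0 by its second probe. B3gnt5, Acvr2b, Gsdme, Ipo4, Hlf, Scpep1 and Slc17a9, each measured by 1 probe, ranged from 2.25 to 2.92, and Nipal3 differed by 2.33 and 0.67 by its probes. Sytl1, the first of the 15 at 3.78, had a second probe at -0.98.

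The lowest 15 lay between -5.57 and -2.21. After Shfl came Prss8, a membrane serine protease, at 2.08 and -2.04, a difference of -4.12. Spaca9, a microtubule protein, was at 2.63 and -0.17, and its probes differed by -2.81 and -2.48. Gnaz, a G protein alpha subunit, was at 2.06 and -0.65, and its probes differed by -2.71 and -1.13. Rmrp, the RNA of the RNase MRP particle, was at 3.65 and 1.02, and Ece1, the endothelin converting enzyme, at 4.37 and 2.07 with 2.37 to 3.28 on the other arrays. The chemokine gene Ccl5 was at 1.47 and -0.89 and between -2.02 and -1.60 on the other 4. Lyve1 belongs to this group, and Pcbp3, 1500015A07Rik, Naa80, Golga1 and Mmp17, each by 1 probe, ranged from -2.51 to -2.21. Ttll5 and Selenon had a second probe in the opposite direction, at 1.39 and 0.75.

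Levels in LMPP, the population above CLP, were set beside these genes as a description. For all 15 of the highest, both LMPP arrays stood above the wild type CLP array, as they did for 39.1% of the 7057 bright genes, and for 13 the mean of the LMPP arrays was nearer the null-labelled CLP array, against 53.2% of bright genes. For 13 of the 15 lowest, both LMPP arrays stood below the wild type CLP array, against 47.4% of bright genes, and for 10 the LMPP mean was nearer the null-labelled CLP array. The genes were picked for an extreme value on a CLP array, so these counts follow in part from the choice.

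Genes with every probe past 2-fold in the same direction were few: 51 (1.76%) higher and 40 (1.38%) lower of the 2894 genes with at least 2 probes measured on both arrays. Ranked by their smaller probe difference, the highest were Morn3 at -3.45 and -0.97 (2.48 and 2.53), Igf2bp2 and Hnmt. Then came Cndp2, a dipeptidase, at -2.32 and -0.04, and the tubulin gene Tubb2b at -0.73 and 1.5, with 3.38 by its second probe. Ccdc174, the DNA-protein crosslink protease gene Sprtn, the helicase gene Ddx31, Trim2 and Sytl3 had smaller probe differences of 2.0, 1.96, 1.96, 1.89 and 1.78. Tubb2b was highest on the null-labelled CLP array, with -0.99 to -0.53 on the other 5. Ddx31 was lowest on the wild type CLP array, at -2.38 there and 0.33 to 1.20 on the other 5.

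On the lower side the first was Eva1b at -0.38 and -2.89, with -2.84 by its second probe. Tead2, a DNA binding partner of Yap, was at 0.22 and -2.92, and its probes differed by -3.13 and -2.49. Vangl2, a planar polarity gene, was at 2.11 and 0.22, with 2.5 to 2.97 on the other 4 arrays, and Sufu, the Hedgehog inhibitor, was at 1.15 and -0.57 with 0.72 to 1.5 on the others. Neurl1a, a ubiquitin ligase, was at -0.86 and -2.90. For Spaca9, Paqr6, Lysmd1, Smg9 and Kyat1 the smaller probe difference was -2.48, -2.07, -1.83, -1.82 and -1.69. Vangl2 and Sufu were thus lowest on the null-labelled CLP array, whereas Paqr6 stood highest on the wild type CLP array, at 1.09 against -2.55 to -0.98 elsewhere.

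The largest bounds were met where a gene was above the 75th percentile on 1 CLP array and below background on the other. Fstl1, a secreted glycoprotein, was at 1.12 on the null-labelled array and at least 33.8-fold higher than in wild type CLP, with 3.81 to 4.18 on the other 4 arrays. Cdk14 was at least 33.4-fold higher, and its other probe differed by -1.83. Dtna, Khdc1b and Slc5a9 were at least 33.0-fold, 31.8-fold and 24.1-fold higher and not well above background on the other 5 arrays. In the other direction, the sulfotransferase gene Chst1 was at 1.83 in wild type CLP and at least 64.6-fold lower on the null-labelled array. In HSC Chst1 went the opposite way, at -1.84 in wild type and 2.41 on the null-labelled array. In LMPP it was above background on the null-labelled array alone, at -0.78. Kank1, Comp, Gm4952 and Saysd1 were at least 57.7-fold, 26.3-fold, 24.4-fold and 23.4-fold lower in CLP. Each of these 10 values turns on whether 1 array detected the gene.

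The same contrast in the other populations, which share no array with it, overlapped in part. Of 927 genes at least 2-fold higher in CLP and measured on all 4 arrays, 52 were also at least 2-fold higher in LMPP, 5.61% of the CLP genes and 16.5% of the 315 LMPP genes, while 43 were at least 2-fold lower there. In LMPP 2.91% of all 10844 genes measured on the 4 arrays were at least 2-fold higher. Of 657 lower genes 34 were lower in LMPP, where 2.02% of all genes were, and 41 higher. With HSC, 99 of 933 higher genes were shared (10.6%, and 17.4% of the 569 HSC genes) and 52 went the opposite way, where 5.19% of 10955 genes were higher in HSC. Of 661 lower genes 61 were shared and 65 went the opposite way, where 3.49% of all genes were lower in HSC. In all 3 populations 10 of 10669 genes were at least 2-fold higher, among them Hspa1a and Cdkn1a, and 10 were lower, among them Ifit3b, an interferon response gene. For some lists the other populations had the same sign as CLP: the pre-B list had medians of 0.50 in LMPP and 0.44 in HSC, and the natural killer and innate lymphoid list 0.29 and 0.22. The V(D)J list had medians of -0.14 in LMPP and -0.21 in HSC, and Klrd1 and Tbx21 differed by 0.33 and -0.37 in LMPP. Whether a difference varied between populations was not tested.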

How the data were processed

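RNA of 6 sorts was read on Agilent 1-colour arrays of 62976 spots, with 1 array a group. Per the file headers, the deposited intensity values are Feature Extraction 10.10.1.1 processed signals, background-subtracted by the scanner software. Log2 of these values was centred on the 75th percentile of each array over spots that are not controls. Outlier spots were left out, repeat spots of a probe were averaged, and the brightest of several probes stood for a gene. Probe accessions matched to RefSeq (GRCm38.p6) named 27235 of 55681 probes and 20660 genes. A gene was compared if well above background on at least 1 of the 2 arrays, and a dim side was set to the lowest signal well above background or its own value, whichever was higher. No test could be made with 1 array a group, and array number limits precision. Median centring, quantile normalization, the submitters' series values and limma 3.58.1 normexp (offset 50, on the median spot signal) were alternatives. The submitters' values were the processed signal times 1 constant for each array (5.71 to 8.77), on a linear scale with column medians of 120.7 to 200.1. Computation used Python 3.11.15, pandas 2.3.3, numpy 2.4.6 and R 4.3.3, and the comparison was tested on simulated data.

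Members, the 36 gene lists (580 genes, 570 matched) and the settings were chosen with earlier results of these data known. Genes were named by rule: Satb1 and the gate markers, the 15 highest and 15 lowest bright genes, the 10 highest and 10 lowest with every probe past 2-fold, up to 6 members past 2-fold and up to 3 brightest others of each list, and the 5 largest bounds each way. Dntt, Prkdc, Traf6, Igll1, Jak1, Socs2, Mfng, Zbtb16, Id2, Cdh5, Hmga2, Hdac1, Bcl6, Ifit3b and the genes given as not detected were named after their values were seen. Some members counted in the lists are not reported by name here.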

Additional observations from a re-analysis of the deposited data

Results flagged for a closer look

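Several values stand out because the same contrast had the opposite sign in another population, with 1 array a genotype in each. None of these differences between populations was tested. The V(D)J list had a median of 1.07 in CLP and -0.21 in HSC, and the MHC class II list 0.63 in CLP and -0.40 in HSC. The T cell receptor list had a median of -0.25 in CLP and 0.26 in HSC, and the endothelial and stromal list -1.16 and 0.29. The megakaryocyte and platelet list had a median of -0.43 in CLP, 0.38 in LMPP and 0.25 in HSC. Single genes are given here only if measured on both arrays of each pair, so bounds such as that of Chst1 are left out. Of the named ones, the DNA sensor gene Aim2 was higher by 3.57 in CLP and differed by -1.12 in HSC. Gnaz differed by -2.71 in CLP and 1.06 in LMPP, Morn3 by 2.48 and -1.40, and Sprtn by 1.96 and -1.51. Lysmd1 differed by -2.03 in CLP and 1.63 in HSC, and Neurl1a by -2.04 and 1.26.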

How the results depend on the processing

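Of 921 recomputed values of 154 named genes, 747 moved by less than the scanner's error, 171 moved by more and 3 changed sign. Many of the 747 could not have moved. Median centring, centring over spots well above background and the submitters' values each shift all genes by 1 constant smaller than that error. For Aim2, at 3.57, they gave 3.51, 3.60 and 3.56, and normexp gave 2.83. The mean over probes leaves a gene with 1 probe unchanged. The 747 are therefore no measure of stability. A change of sign was counted only for genes past 2-fold, and those of smaller differences stayed in the other kinds. For values that moved by more or changed sign the cause was not tested. With the mean over probes in place of the brightest probe, Atm came to -0.30, Cdkn1a to -0.14 and Ddx58 to 0.47. The number of genes at least 2-fold higher on the null-labelled CLP array (1560) was 518 after normexp background correction and 1026 for genes well above background on both arrays, and 2928 or 734 with a threshold of 1.5-fold or 3-fold. The number lower (1085) was 419 after normexp, 1947 with no detection filter, and 2197 or 465 with the other thresholds. Fewer genes were tested where both arrays had to be above background and more with no filter. The V(D)J median of 1.07 was 0.24 after normexp, 0.50 with the mean over probes and 0.86 with no filter, and the pre-B median of 0.48 was 0.11 after normexp. Of the genes past 2-fold 58.98% were higher, and the share ran from 53.37% to 61.12% over the settings that kept the threshold. No paired analysis was possible because each group has 1 array, and leaving out an array would leave no comparison. With 1 array a genotype, amplification from little RNA and few genes with a second probe, spread between embryos is unknown. Low signal over background is a further limit for dim genes. Brightness is no check on a difference either. Of bright genes past 2-fold in CLP, the second probe went the same way for 60%, and for 63.4% of the others.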

Other observations

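Probes with no gene name in the annotation also gave signal on the CLP arrays. Of 15617 autosomal probes that the array names by a genome interval, 7989 could be compared, of which 1150 (14.4%) were at least 2-fold higher on the null-labelled array and 1146 (14.3%) at least 2-fold lower, with a median of -0.11. Of 12252 other probes without a gene name 6285 could be compared, with 626 (9.96%) higher and 717 (11.4%) lower and a median of -0.12. Both medians lie below that of the named genes, 0.05.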
